A study of Mus musculus with 17 samples.

Results

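The kinase mTOR and the proteins that build, anchor and restrain it were read as messenger RNA in sorted epidermal stem cells of mice. The set held 50 named genes, picked by name for their place in the pathway, with earlier results of these data known. All 50 were found in a table of 48820 genes, and 49 had enough counts to be tested among 30405 genes. The title of the series names ribosome rescue in the epidermis, and the comparisons below ask how the pathway's genes stood with loss of Pelo and between stem cell populations.

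Mice were C57BL/6 and 3 months old, and all carried an EGFP-CreERT2 cassette, a green fluorescent protein with an inducible recombinase, at Lrig1, Lgr5 or Lgr6. All had been treated with 4-OHT, the tamoxifen metabolite that switches this recombinase on, controls included. Mutants were Pelo fl/fl (labelled Pelo -/-) and controls were Pelo fl/+ (labelled WT), so controls also had a floxed allele that the treatment could delete. Each library came from 1000 GFP-positive cells of total epidermis. There were 3 libraries each of Pelo -/- Lrig1, Pelo -/- Lgr6, WT Lgr6, Pelo -/- Lgr5 and WT Lgr5, and 2 of WT Lrig1. The labels do not say whether replicates were separate animals, so p-values measure the spread between these libraries.

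Pelo encodes a factor that releases ribosomes stalled on messenger RNA. mTOR works in a pair of complexes. In mTORC1 it is joined by raptor (Rptor), and it phosphorylates S6 kinases and 4E-BPs to drive translation and cell growth. In mTORC2 it is joined by rictor and phosphorylates Akt. Amino acids recruit mTORC1 to the lysosome through the Rag GTPases, which the Ragulator complex (Lamtor1 to Lamtor5) tethers to the lysosomal membrane. There the small GTPase Rheb switches the kinase on, and the Tsc complex (Tsc1, Tsc2, Tbc1d7) switches Rheb off. In skin the pathway is known for roles in keratinocyte growth and in the entry of hair follicle stem cells into a new growth phase. These controls act largely on proteins, which were not measured.

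Libraries held 9647507 to 28098841 counts. The 6 Lgr5 libraries stood apart, with 9647507 to 17219054 counts and scaling factors of 0.991 to 1.90, against 13333497 to 28098841 counts and factors of 0.689 to 0.964 in the other 11. Predicted genes (symbols starting with Gm) took 16.8% to 33.6% of their counts, against 17.1% to 20.8% elsewhere. Pelo passed the test in no population (edgeR adjusted p rounds to 1.00 in each). The libraries labelled Pelo -/- Lrig1 read it at 0.482 to 3.81 CPM (the count scaled to a common library size by TMM, a trimmed mean of ratios), against 3.72 to 6.05 CPM for WT Lrig1. The range was 3.10 to 4.93 CPM for Pelo -/- Lgr6 against 2.02 to 5.39 CPM for WT Lgr6, and 11.8 to 23.6 CPM for Pelo -/- Lgr5 against 5.89 to 17.4 CPM for WT Lgr5. The labels do not name the deleted exons, and these counts do not measure the deletion. Lgr5 was at 275 to 569 CPM in the Lgr5 libraries and at 0.0530 to 29.4 CPM in the others, while Lgr6 transcripts overlapped between the populations, and Lrig1 transcripts were at 7.41 to 41.7 CPM in Lrig1 and 39.3 to 59.9 CPM in Lgr6 libraries.

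The Ragulator subunits Lamtor5 and Lamtor2 had the highest means over the 17 libraries once counts were divided by exon length. They averaged 96.8 and 55.3 CPM per kb there, followed by the leucine sensor and stress gene Sesn1 at 35.6, and by Seh1l and Sec13, subunits shared by the nuclear pore and the GATOR2 complex, at 28.7 and 21.3. The order differed in Lgr5 cells. In Pelo -/- Lgr5, Lamtor5 was the highest at 56.7 CPM per kb, then Sesn1 at 47.0, with Lamtor2 at 14.4 in place 6. In WT Lgr5, Sesn1 was the highest at 40.5 CPM per kb, then Seh1l at 15.3 and Lamtor5 at 14.3, with Lamtor2 at 10.5 in place 8, and the WT Lgr5 values of both Lamtor genes had an SD as large as their mean or larger. Over all libraries Rheb stood at 14.5 CPM per kb. The kinase itself was lower, with Mtor at 3.39 CPM per kb. Its mTORC2 partner Rictor stood at 4.78, its mTORC1 partner Rptor at 1.07, and Mlst8, a subunit of both complexes, at 1.05. Tsc2 stood at 2.46 and Tsc1 at 1.49 CPM per kb. The low end was held by Prr5, Prr5l, Rragd and Rragb at 0.457, 0.147, 0.153 and 0.0957 CPM per kb. Eif4ebp3 had no count in 10 of 17 libraries and 6 counts at most, and it was the 1 member that was not tested. It also shares 501 exon bases with a read-through gene on the same strand. Among paralogs, Rragc exceeded Rragd (18.7 against 0.153 CPM per kb) and Rraga exceeded Rragb (11.4 against 0.0957) on this scale. Rps6kb1, which encodes an S6 kinase, stood at 10.2 CPM per kb and its paralog Rps6kb2 at 1.89. The translation repressor Eif4ebp1 was at 7.33 CPM per kb, the Rheb paralog Rhebl1 at 3.67, the mTOR inhibitor Deptor at 3.13 and the GATOR1 subunit Nprl3 at 1.17. Rhebl1 shares 546 exon bases with Dhh on the same strand. On the other strand Rps6kb2 shares 1224 with Ptprcap, Nprl3 1340 with Mpg and Mlst8 997 with Bricd5, so the levels of these genes are less certain.

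**Figure D1:**
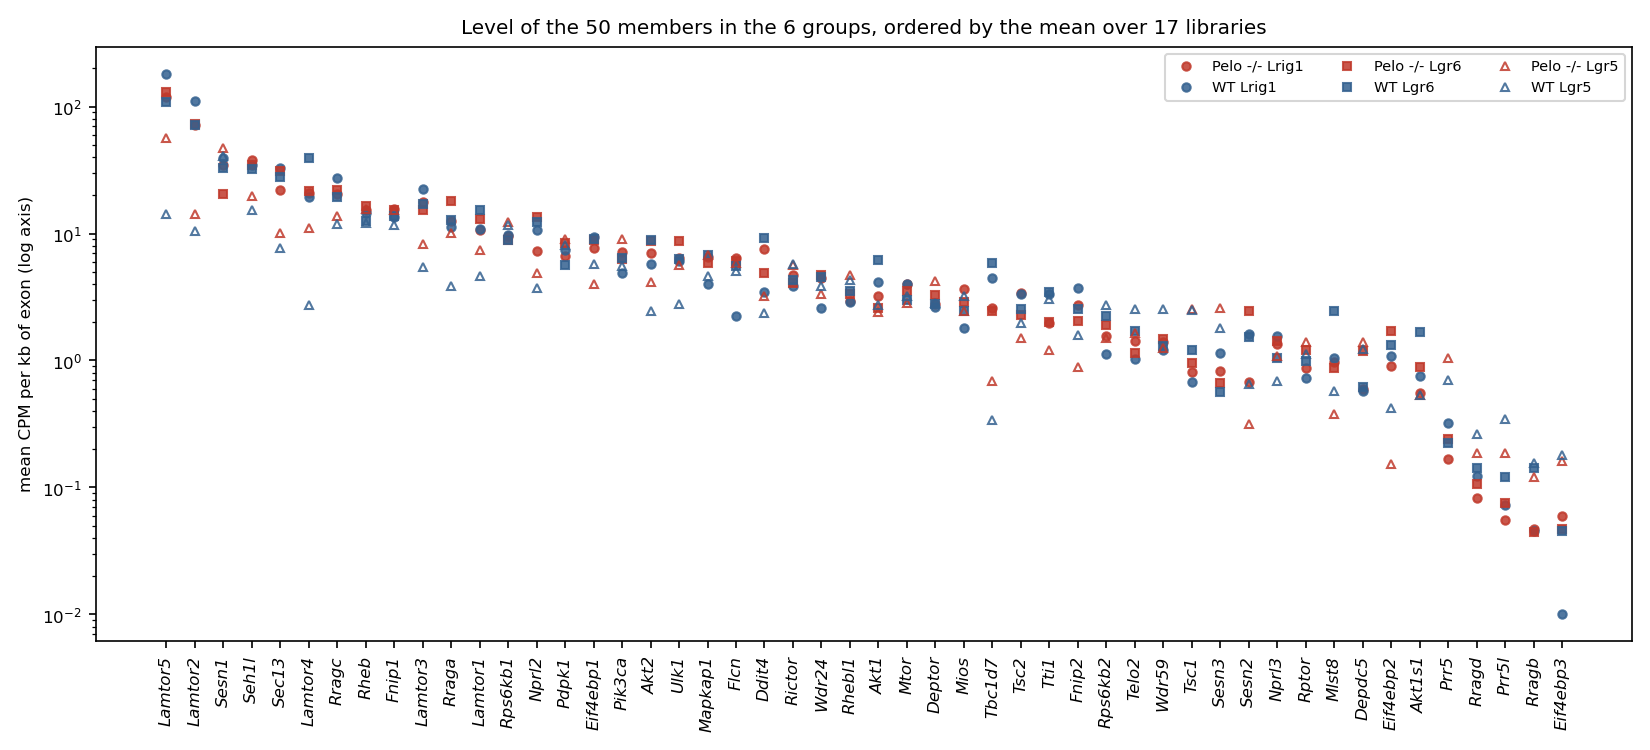
Mean CPM per kb of exon in each of the 6 groups (vertical log axis) for the 50 members, ordered by their mean over 17 libraries; red is Pelo -/-, blue is WT, circles are Lrig1, squares Lgr6 and open triangles Lgr5. Lamtor5 leads at a mean of 96.8 CPM per kb over the libraries but not in WT Lgr5, where Sesn1 does, the open triangles of Lamtor2, Lamtor4, Lamtor5 and Tbc1d7 lie below the other symbols of those genes, and Eif4ebp3 in WT Lrig1, which had no count, is drawn at 0.01.

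No member passed the test between Pelo -/- and WT cells in any population. In edgeR 0 of 49 members were called in Lrig1, Lgr6 and Lgr5 cells at an adjusted p under 0.05, where 0.0%, 0.0% and 0.0197% of all tested genes were called, the last being 6 genes in Lgr5. At an unadjusted p under 0.05 there were 1, 1 and 4 members, against 1106, 1181 and 1901 of 30405 genes. DESeq2 and limma-voom also called 0 members in each. The median log2 fold change of the members was 0.00 in Lrig1, 0.00 in Lgr6 and 0.21 in Lgr5, where that of all tested genes was -0.02, -0.27 and -0.14 and that of genes with a mean of at least 5 CPM -0.07, -0.03 and 0.27. The 3 effects averaged over populations gave 0 calls among members and 0.0% among all genes in edgeR, with 3 members and 1508 genes at an unadjusted p under 0.05 and a member median of 0.02 against -0.12 for all genes and 0.06 for those at a mean of at least 5 CPM.

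**Figure D2:**
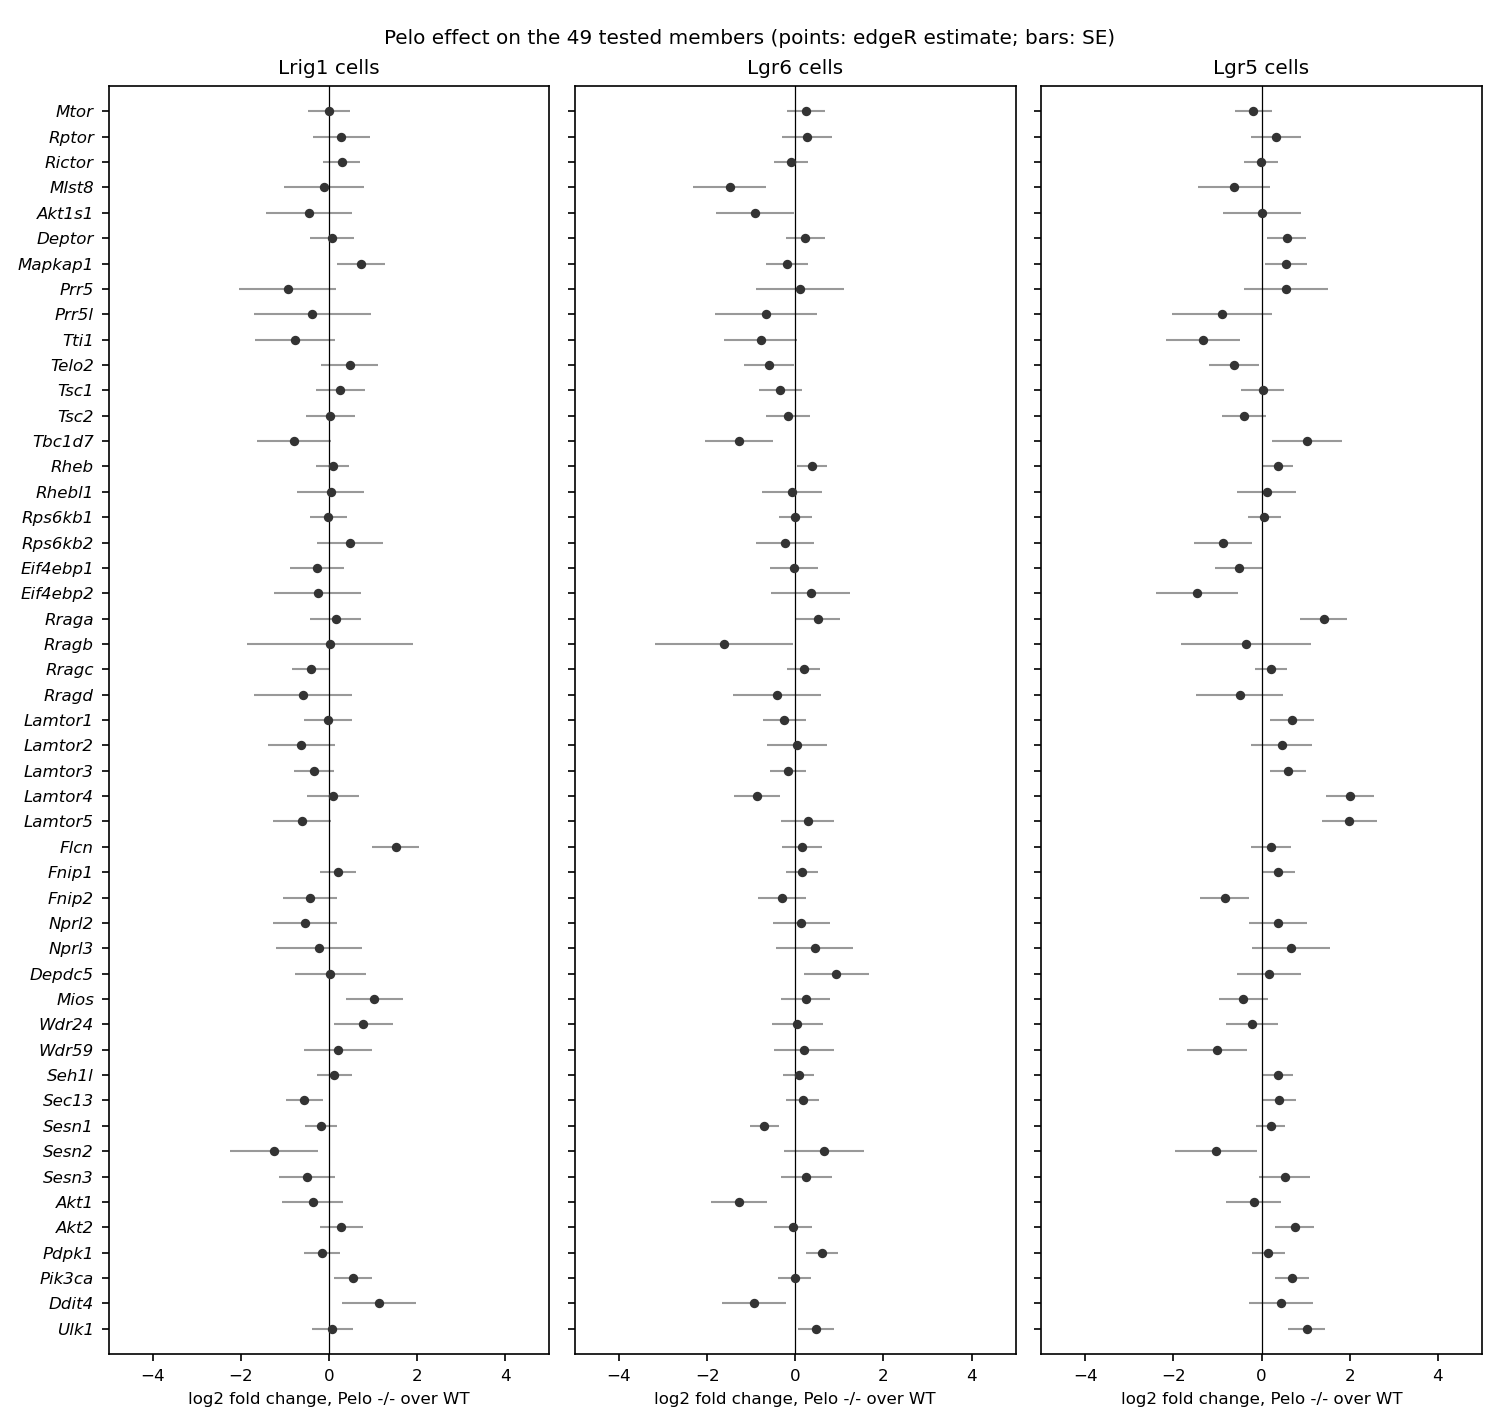
Log2 fold change of Pelo -/- over WT (horizontal axis) for the 49 tested members in Lrig1, Lgr6 and Lgr5 cells; points are edgeR estimates and bars are SE. The values run from -1.25 to 1.51 in Lrig1, -1.62 to 0.93 in Lgr6 and -1.46 to 2.00 in Lgr5, and Lamtor4 and Lamtor5 stand at 2.00 and 1.99 in Lgr5 cells without passing the adjusted test.

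In Lrig1 cells neither the kinase nor its partners passed the test. Mtor stood at 50.8, 36.5 and 34.1 CPM in Pelo -/- Lrig1 libraries and 45.1 and 35.8 CPM in WT, a log2 fold change of 0.00 ± 0.47 (SE). Rptor was at 17.9, 8.74 and 8.71 CPM in Pelo -/- and 10.2 and 9.22 CPM in WT (0.28 ± 0.64). Rictor was at 64.9, 79.5 and 94.7 CPM in Pelo -/- and 80.2 and 50.8 CPM in WT (0.28 ± 0.42). In all of these the groups overlapped and edgeR's adjusted p was 1. Tsc1, the scaffold of the Tsc complex, was at 6.15, 10.6 and 12.1 CPM in Pelo -/- and 9.996 and 6.09 CPM in WT (0.26 ± 0.55). Tsc2, the subunit that acts on Rheb, was at 25.7, 35.9 and 36.6 CPM in Pelo -/- and 35.7 and 28.5 CPM in WT (0.03 ± 0.55). Rheb was at 109, 112 and 135 CPM in Pelo -/- and 122 and 102 CPM in WT (0.08 ± 0.38), and these ranges overlapped too.

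In Lgr6 cells Mtor was at 57.5, 19.5 and 29.9 CPM in Pelo -/- and 35.1, 26.6 and 28.6 CPM in WT (0.24 ± 0.42), with 1 high Pelo -/- library. Rptor was at 18.5, 19.8 and 10.3 CPM in Pelo -/- and 15.5, 10.7 and 14.1 CPM in WT (0.27 ± 0.57). Rictor was at 79.0, 78.0 and 48.9 CPM in Pelo -/- and 102, 40.5 and 77.2 CPM in WT (-0.10 ± 0.38). Each of these pairs of groups overlapped. Tsc1 was at 14.1, 12.05 and 7.85 CPM in Pelo -/- and 16.9, 13.8 and 12.3 CPM in WT (-0.34 ± 0.49). Tsc2 was at 28.2, 19.8 and 17.4 CPM in Pelo -/- and 33.0, 22.5 and 18.1 CPM in WT (-0.17 ± 0.49). Rheb was at 144, 121 and 115 CPM in Pelo -/- and 98.3, 89.4 and 104 CPM in WT (0.38 ± 0.34), so that all 3 Pelo -/- libraries lay above all 3 WT libraries, without passing the test (edgeR adjusted p = 1 for each of these genes).

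In Lgr5 cells Mtor was at 28.6, 28.8 and 28.5 CPM in Pelo -/- and 22.6, 38.3 and 37.0 CPM in WT (-0.19 ± 0.42). Rptor was at 12.7, 10.1 and 34.2 CPM in Pelo -/- and 10.3, 22.3 and 12.6 CPM in WT (0.34 ± 0.57). Rictor was at 79.1, 126 and 83.0 CPM in Pelo -/- and 95.4, 96.0 and 98.8 CPM in WT (-0.01 ± 0.38). The groups overlapped for all 3 genes. Tsc1 was at 28.2, 23.0 and 38.6 CPM in Pelo -/- and 25.7, 23.7 and 38.8 CPM in WT (0.03 ± 0.49). Tsc2 was at 6.21, 24.2 and 12.8 CPM in Pelo -/- and 14.4, 14.5 and 28.2 CPM in WT (-0.41 ± 0.50). Rheb was at 136, 132 and 95.2 CPM in Pelo -/- and 82.6, 139 and 59.8 CPM in WT (0.37 ± 0.34). These groups overlapped as well, and edgeR's adjusted p was at least 0.995 for all 6 genes in Lgr5.

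Ragulator subunits had the smallest p of the members in Lgr5 cells, without passing. Lamtor4 was at 13.7, 12.2 and 17.05 CPM in Pelo -/- Lgr5 and at 2.09, 7.10 and 1.53 CPM in WT Lgr5, with no overlap (2.00 ± 0.55, unadjusted p = 0.00118, edgeR adjusted p = 0.322). Lamtor5 was at 67.0, 70.8 and 12.5 CPM in Pelo -/- and 26.9, 7.87 and 3.00 CPM in WT, which overlap (1.99 ± 0.62, edgeR adjusted p = 0.504). All 5 Ragulator subunits had positive values, from 0.46 to 2.00. Rraga, a Rag GTPase that Ragulator holds, was at 17.9, 23.5 and 7.99 CPM in Pelo -/- and 7.02, 8.51 and 3.06 CPM in WT (1.41 ± 0.53, edgeR adjusted p = 0.654). Ulk1, the autophagy kinase that mTORC1 restrains, was at 52.9, 19.5 and 38.0 CPM in Pelo -/- and 14.8, 19.3 and 20.0 CPM in WT (1.03 ± 0.42, edgeR adjusted p = 0.691). Without the 3 Lgr5 libraries richest in predicted genes, which leaves 2 Pelo -/- and 1 WT library, these values were 0.84 for Lamtor4, 2.24 for Lamtor5, 0.71 for Rraga and 0.36 for Ulk1. Coding genes with a mean of at least 5 CPM and under 1500 exon bases had a median of 0.51 in this comparison. It was 0.29 for those of 1500 to 5000 bases and 0.18 for those over 5000 bases. Lamtor4 has 1302 and Lamtor5 884 exon bases. Summed over 7 keratinocyte markers, Pelo -/- Lgr5 libraries were at 9828 to 15739 CPM and WT Lgr5 libraries at 6617 to 10031 CPM, and over 7 melanocyte markers at 21.2 to 255 CPM in Pelo -/- and 21.1 to 70.5 CPM in WT. The part of transcript length and of these cell types in the Ragulator values was not tested.

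On the negative side in Lgr5 cells stood Tti1, which helps assemble mTOR complexes, at 10.2, 1.63 and 3.06 CPM in Pelo -/- and 1.08, 19.3 and 17.2 CPM in WT (-1.33 ± 0.84). Eif4ebp2, a translation repressor that mTORC1 inactivates, was at 0.762, 0.992 and 0.911 CPM in Pelo -/- and 1.69, 4.80 and 0.874 CPM in WT (-1.46 ± 0.93). The groups overlapped for both genes. Fnip2, a folliculin partner, was at 5.98, 11.97 and 4.504 CPM in Pelo -/- and 18.4, 9.47 and 12.1 CPM in WT (-0.83 ± 0.56). The GATOR2 subunit Wdr59 was at 20.5, 1.84 and 11.2 CPM in Pelo -/- and 22.8, 30.2 and 14.7 CPM in WT (-1.01 ± 0.68). None passed (edgeR adjusted p at least 0.938), and these groups overlapped too.

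In Lrig1 cells the smallest p belonged to Flcn, which encodes folliculin, the GTPase activator that acts on RagC and RagD. Flcn was at 28.4, 28.7 and 26.4 CPM in Pelo -/- Lrig1 and at 8.92 and 10.6 CPM in WT Lrig1, so the groups did not overlap (1.51 ± 0.53, unadjusted p = 0.00879, edgeR adjusted p = 1). In the other populations Flcn overlapped between genotypes, with 0.15 ± 0.45 in Lgr6 and 0.21 ± 0.45 in Lgr5. The GATOR2 subunit Mios was at 24.8, 23.1 and 24.6 CPM in Pelo -/- and 16.7 and 7.05 CPM in WT (1.03 ± 0.64). The Mios groups did not overlap. Ddit4, a stress-induced mTORC1 inhibitor, was at 9.20, 14.8 and 16.0 CPM in Pelo -/- and 10.3 and 1.84 CPM in WT (1.14 ± 0.84). The mTORC2 subunit Mapkap1 was at 25.8, 19.4 and 34.5 CPM in Pelo -/- and 12.3 and 19.9 CPM in WT (0.72 ± 0.54).

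On the negative side in Lrig1 cells Sec13 was at 71.1, 86.3 and 54.1 CPM in Pelo -/- and 98.5 and 109 CPM in WT (-0.56 ± 0.42), without overlap. Sesn2 was at 0.218, 3.74 and 3.11 CPM in Pelo -/- and 3.83 and 7.39 CPM in WT (-1.25 ± 1.00). Rragc, a Rag GTPase, was at 44.8, 72.9 and 87.5 CPM in Pelo -/- and 81.9 and 100.8 CPM in WT (-0.42 ± 0.41). Tbc1d7, the third subunit of the Tsc complex, was at 3.48, 14.3 and 13.5 CPM in Pelo -/- and 28.9 and 7.44 CPM in WT (-0.80 ± 0.84). The adjusted p of edgeR was 1 for all of these genes in Lrig1 cells.

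In Lgr6 cells Sesn1 was at 88.9, 85.3 and 68.6 CPM in Pelo -/- and 126, 129.5 and 138 CPM in WT, with no overlap (-0.70 ± 0.33, unadjusted p = 0.0437, edgeR adjusted p = 1). Akt1, a kinase that mTORC2 phosphorylates, was at 7.07, 16.7 and 7.85 CPM in Pelo -/- and 6.91, 51.4 and 17.8 CPM in WT (-1.27 ± 0.63), where the mean of WT rests on 1 high library. Mlst8, a subunit of both complexes, was at 5.67, 3.93 and 1.96 CPM in Pelo -/- and 14.7, 5.24 and 12.5 CPM in WT (-1.49 ± 0.82). Lamtor4 was at 26.1, 33.9 and 24.5 CPM in Pelo -/- and 27.0, 46.8 and 80.9 CPM in WT (-0.87 ± 0.52). Positive values were read for 3 further genes. Pdpk1, the kinase that activates Akt, was at 79.0, 80.0 and 119 CPM in Pelo -/- and 75.5, 52.7 and 55.6 CPM in WT (0.60 ± 0.37). The GATOR1 subunit Depdc5 was at 17.4, 16.6 and 7.96 CPM in Pelo -/- and 4.59, 13.2 and 4.13 CPM in WT (0.93 ± 0.73). Ulk1 was at 37.2, 73.6 and 60.1 CPM in Pelo -/- and 44.1, 43.9 and 35.6 CPM in WT (0.47 ± 0.42), and edgeR's adjusted p was 1 for each gene. Mlst8 shares 997 exon bases with Bricd5 on the other strand, and the strand setting of the counting is not known here.

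Differences of the Pelo effect between populations gave 0 calls among members and 0.0% of all genes in edgeR. At an unadjusted p under 0.05 there were 2 members for Lrig1 minus Lgr5, 2 for Lgr6 minus Lgr5 and 0 for Lrig1 minus Lgr6, against 1613, 1454 and 1278 of all genes. The Pelo effect on Lamtor4 in Lgr6 minus that in Lgr5 cells was -2.87 ± 0.76 (unadjusted p = 0.000807, edgeR adjusted p = 0.620). Averaged over the 3 populations, Flcn had 0.62 ± 0.27, Rraga 0.69 ± 0.32 and Ulk1 0.52 ± 0.25 (edgeR adjusted p = 0.980, 0.980 and 0.980).

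Some members passed the test between populations, and most of the 49 did not. In WT cells Lrig1 against Lgr5 gave 7 members higher and 1 lower of 49, where 11.1% of all tested genes were called, 9.09% higher and 1.99% lower. Lgr6 against Lgr5 gave 10 higher and 0 lower, where 12.2% of all genes were called, 10.6% higher and 1.57% lower. The shares of members called are to be read against these shares of all genes, and nothing particular to the members follows from them. Both comparisons use the same WT Lgr5 libraries. The genes called higher were Ragulator subunits (4 of 5 in Lrig1, 5 of 5 in Lgr6), Sec13, Seh1l and Tbc1d7, with Rraga and Akt2 added in Lgr6, and the gene called lower was Tsc1. None of the 11 tested members that form or assemble the mTOR complexes, Mtor, Rptor and Rictor among them, was called in these comparisons. In sorted bulk samples fewer cells of a type and less RNA per cell cannot be told apart.

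The members' median log2 fold change was 0.26 for Lrig1 and 0.24 for Lgr6 against Lgr5 in WT cells, that of all genes was -0.99 and -0.49 and that of genes with a mean of at least 5 CPM 0.75 and 0.80. The split into higher and lower moved with the filter and the scaling. With a minimum mean of 5 CPM, which left 11061 genes and 41 members, 5 members were higher and 5 lower for Lrig1, and 6 higher and 7 lower for Lgr6. At that minimum the member medians were -0.55 and -0.57 and the all-gene medians -0.06 and -0.04. With RLE size factors the splits were 6 against 1 and 6 against 2 (all-gene medians -1.36 and -0.996), with DESeq2 6 against 4 and 7 against 3, and with limma-voom 8 against 1 and 10 against 1. The shares of all genes called under these settings are not given here, so nothing particular to the members follows from the splits. The members lower at that minimum were Tsc1, Flcn, Telo2, Rictor and Rps6kb1 in Lrig1, and Sesn3, Sesn1, Tsc1, Pdpk1, Rps6kb1, Rictor and Rheb in Lgr6. Rheb stood at 0.05 before and -0.70 at the minimum, so its direction depends on the minimum, which changes both the genes tested and the scaling.

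Lamtor4 and Lamtor5, which form a dimer within Ragulator, had large differences. Lamtor5 (chromosome 3 from 107278858 to 107284082, GRCm38) was at 139 and 179 CPM in WT Lrig1 and 72.0, 72.9 and 142 CPM in WT Lgr6, against 26.9, 7.87 and 3.00 CPM in WT Lgr5. Its log2 fold change was 3.66 ± 0.69 in Lrig1 (edgeR adjusted p = 0.000905) and 2.92 ± 0.64 in Lgr6 (edgeR adjusted p = 0.00300). The WT Lgr5 libraries lay below every library of the other WT groups. Lamtor4 (chromosome 5 from 138255482 to 138259398) was at 28.1 and 22.5 CPM in WT Lrig1 and 27.0, 46.8 and 80.9 CPM in WT Lgr6, against 2.09, 7.10 and 1.53 CPM in WT Lgr5. It rose by 2.82 ± 0.59 in Lrig1 (edgeR adjusted p = 0.00192) and by 3.85 ± 0.59 in Lgr6 (edgeR adjusted p = 5.45e-05). Both genes kept their calls without any 1 library in both comparisons. Lamtor4 in Lrig1 lost its call when the compared groups alone were used and without the 3 Lgr5 libraries richest in predicted genes (values of 2.72 and 1.77).

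Lamtor2, whose product pairs with that of Lamtor3, was at 105 and 163 CPM in WT Lrig1 and 49.9, 99.2 and 110.1 CPM in WT Lgr6, against 30.5, 5.89 and 1.91 CPM in WT Lgr5. It was higher by 3.39 ± 0.78 in Lrig1 and 2.76 ± 0.73 in Lgr6 (edgeR adjusted p = 0.00611 and 0.0141). Lamtor3, which is named for its role as a MAP kinase scaffold, was at 89.3 and 98.5 CPM in WT Lrig1 and 54.7, 42.8 and 116 CPM in WT Lgr6, against 17.8, 24.3 and 26.3 CPM in WT Lgr5. It was higher by 2.04 ± 0.46 in Lrig1 and 1.64 ± 0.42 in Lgr6 (edgeR adjusted p = 0.00322 and 0.00876). The WT Lgr5 libraries lay below the other WT libraries for both genes. The Lamtor3 call in Lgr6 held in 3 of the 6 fits without 1 library, with a value of 0.86 without WT Lgr6 replicate 3. It was lost with RLE, DESeq2, the minimum mean of 5 CPM and the compared groups alone. Lamtor1, the subunit that anchors Ragulator in the membrane, was at 40.6 and 29.6 CPM in WT Lrig1 and 21.7, 71.5 and 55.1 CPM in WT Lgr6, against 20.8, 12.03 and 11.5 CPM in WT Lgr5. It was called in Lgr6 (1.74 ± 0.51, edgeR adjusted p = 0.0217) and not in Lrig1 (1.25 ± 0.54, edgeR adjusted p = 0.135). The call in Lgr6 held in 1 of the 6 fits without 1 library and under 3 of 9 alternatives, and was lost with RLE, DESeq2 and the compared groups alone. Lamtor1 shares 600 exon bases with Lrrc51 on the other strand, so its counts are less certain.

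**Figure D3:**
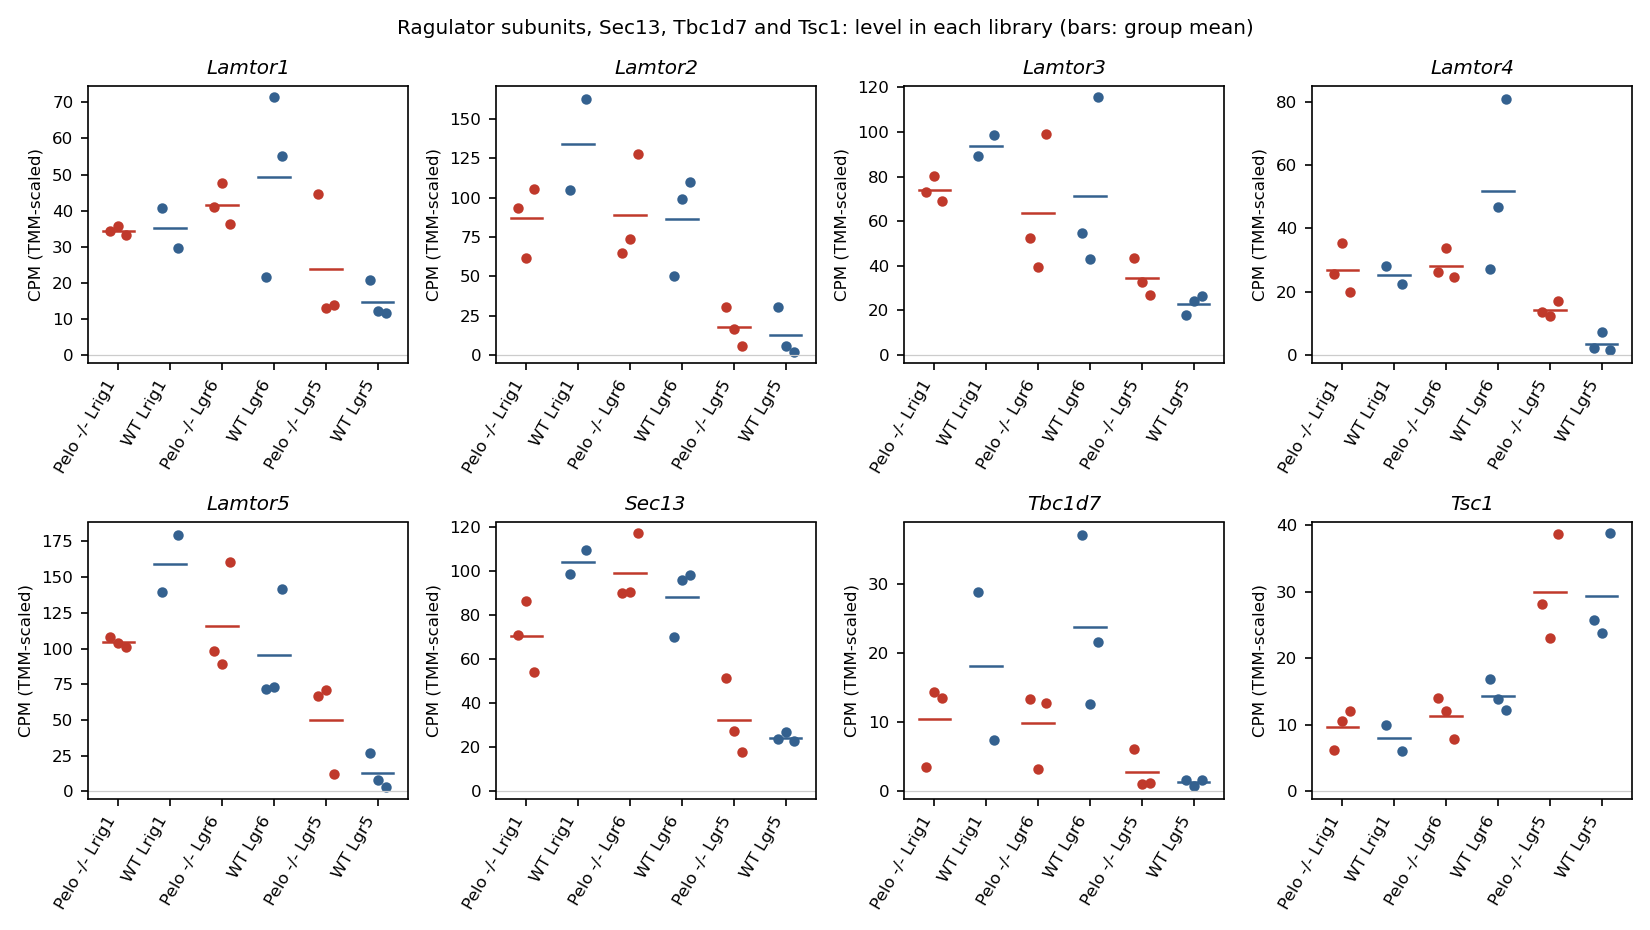
CPM in each library (vertical axes from 0) of the 5 Ragulator subunits, Sec13, Tbc1d7 and Tsc1; points are libraries, bars are group means, red is Pelo -/- and blue is WT. WT Lgr5 libraries lie below all WT Lrig1 and WT Lgr6 libraries for the Ragulator subunits, Sec13 and Tbc1d7 and above them for Tsc1, with Lamtor5 at 26.9, 7.87 and 3.00 CPM in WT Lgr5.

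Sec13 (a gene on chromosome 6 from 113728062 to 113740743) was at 98.5 and 109 CPM in WT Lrig1 and 70.1, 96.1 and 97.98 CPM in WT Lgr6, against 23.6, 27.0 and 22.8 CPM in WT Lgr5. It rose by 2.09 ± 0.42 in Lrig1 and 1.85 ± 0.39 in Lgr6 (edgeR adjusted p = 0.00122 and 0.00161). Seh1l, the other subunit that GATOR2 shares with the nuclear pore, was higher by 1.18 and 1.08 with an adjusted p near the threshold (0.0499 and 0.0459 in edgeR). Both Seh1l calls were lost with RLE, DESeq2, no filter, the replicate block and the compared groups alone. They were also lost at the minimum mean of 5 CPM, with values of 0.44 in Lrig1 and 0.32 in Lgr6. The call in Lgr6 held in 2 of the 6 fits without 1 library. The subunits that belong to GATOR2 alone were not called, against WT Lgr5 in Lrig1 and in Lgr6, with Mios at -0.84 ± 0.64 and -0.40 ± 0.56, Wdr24 at -0.58 ± 0.67 and 0.24 ± 0.59 and Wdr59 at -1.08 ± 0.78 and -0.97 ± 0.68. Sec13 also serves in the COPII coat of vesicles that leave the endoplasmic reticulum.

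Subunits of the Tsc complex went apart. Tbc1d7 (chromosome 13 from 43151740 to 43171501) was at 28.9 and 7.44 CPM in WT Lrig1 and 37.1, 12.7 and 21.6 CPM in WT Lgr6, against 1.62, 0.832 and 1.64 CPM in WT Lgr5. It was higher by 3.73 ± 0.90 in Lrig1 and 4.12 ± 0.87 in Lgr6 (edgeR adjusted p = 0.00609 and 0.00173). Tsc1 (chromosome 2 from 28641228 to 28691167) was at 9.996 and 6.09 CPM in WT Lrig1 and 16.9, 13.8 and 12.3 CPM in WT Lgr6, against 25.7, 23.7 and 38.8 CPM in WT Lgr5. It fell in Lrig1, with a log2 fold change of -1.87 ± 0.59 (edgeR adjusted p = 0.0382) and stood at -1.04 ± 0.49 in Lgr6 without passing (edgeR adjusted p = 0.200). Tsc2 was not called (0.75 ± 0.55 and 0.36 ± 0.50), and 693 of its exon bases are shared with Pkd1 on the other strand. Akt2, a kinase that restrains the Tsc complex, was at 46.5, 93.5 and 51.9 CPM in WT Lgr6 against 21.4, 18.9 and 12.2 CPM in WT Lgr5 (1.87 ± 0.45, edgeR adjusted p = 0.00517). Rraga was called in Lgr6 at 1.73 ± 0.54 (edgeR adjusted p = 0.0335), a call that held in 1 of the 6 fits without 1 library and under 3 of 9 alternatives.

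Several of these calls depended on single libraries. Of the 8 calls for Lrig1, 3 were left without WT Lrig1 replicate 2, 5 without WT Lrig1 replicate 1 and 6 without WT Lgr5 replicate 3. Of the 10 calls for Lgr6, 4 were left without WT Lgr6 replicate 3 and 6 without WT Lgr5 replicate 1. Tsc1 in Lrig1 lost its call without WT Lrig1 replicate 1, WT Lrig1 replicate 2 or WT Lgr5 replicate 3. In Lgr6, Tbc1d7, Lamtor4, Lamtor5 and Akt2 kept their calls without any 1 library.

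Other measures moved with the same contrast. Coding genes with a mean of at least 5 CPM and under 1500 exon bases, 540 in number, had medians of 1.91 in WT Lrig1 and 1.89 in WT Lgr6 against WT Lgr5. The 4530 such genes of 1500 to 5000 bases had 0.97 and 1.03, and the 4511 genes over 5000 bases had 0.23 and 0.27. Lamtor2, Lamtor4 and Lamtor5 have 1218, 1302 and 884 exon bases. Of the other members called higher, Rraga, Lamtor1, Lamtor3, Sec13, Seh1l and Tbc1d7 fall in the middle range, with 1618 to 4151 bases. Akt2 has 7131 bases, and Tsc1, called lower in Lrig1, has 11833. Summed over 7 keratinocyte markers the Lgr5 libraries were at 6617 to 15739 CPM, against 18612 to 32121 CPM in the others. Summed over 7 fibroblast markers they were at 37.1 to 69.9 CPM against 1.96 to 23.9 CPM, and over 7 melanocyte markers at 21.1 to 255 CPM against 1.63 to 23.5 CPM. Summed over 8 Langerhans cell and macrophage markers the Lgr5 libraries were at 43.7 to 144 CPM, against 165 to 533 CPM in the others. In each WT comparison 2 of the 8, Cd74 and H2-Aa, were called higher and 0 lower, but the list was split in sign. It had 4 positive and 4 negative values in Lrig1 (median -0.33) and 5 and 3 in Lgr6 (median 0.89). Of the defining markers, Mlana was at 0 in WT Lrig1 and Pelo -/- Lgr6, Dcn in WT Lrig1 and Lum in Pelo -/- Lrig1, and all were detected in the Lgr5 groups. The part of transcript length, depth and these cell types in the members' differences was not tested.

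The windows upstream of 6 of these genes are shown because the genes differed between the same populations. They hold the 200 bases before the start of each gene, on the gene's strand, from RefSeq on GRCm38.p6. Capitals mark CACGTG, the E-box core bound by TFEB and MYC, and CCGGAAG, a core bound by ETS factors, searched on both strands. The matches do not overlap, and the RefSeq start can differ from the gene start given above.
Lamtor2 (minus strand, chr3:88552952-88553151): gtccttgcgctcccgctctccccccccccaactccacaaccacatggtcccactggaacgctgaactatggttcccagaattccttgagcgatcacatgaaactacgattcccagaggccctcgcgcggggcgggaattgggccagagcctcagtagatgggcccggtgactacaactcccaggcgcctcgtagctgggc
Lamtor4 (plus strand, chr5:138255282-138255481): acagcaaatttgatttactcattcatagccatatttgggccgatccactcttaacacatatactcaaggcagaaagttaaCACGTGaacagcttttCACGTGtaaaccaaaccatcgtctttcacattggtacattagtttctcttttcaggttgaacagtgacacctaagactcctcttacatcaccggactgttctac
Lamtor5 (plus strand, chr3:107278658-107278857): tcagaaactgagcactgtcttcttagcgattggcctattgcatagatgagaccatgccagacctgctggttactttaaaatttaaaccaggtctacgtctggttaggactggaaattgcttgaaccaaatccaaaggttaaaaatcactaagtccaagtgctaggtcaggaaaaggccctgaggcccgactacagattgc
Sec13 (minus strand, chr6:113740682-113740881): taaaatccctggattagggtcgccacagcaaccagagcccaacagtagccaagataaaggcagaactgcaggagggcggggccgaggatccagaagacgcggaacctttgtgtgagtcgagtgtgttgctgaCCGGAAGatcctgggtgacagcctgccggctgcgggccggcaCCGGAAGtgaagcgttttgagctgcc
Tbc1d7 (minus strand, chr13:43171502-43171701): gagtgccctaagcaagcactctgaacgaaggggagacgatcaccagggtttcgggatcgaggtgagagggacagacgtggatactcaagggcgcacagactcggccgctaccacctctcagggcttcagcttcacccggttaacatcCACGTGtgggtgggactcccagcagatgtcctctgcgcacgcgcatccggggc
Tsc1 (plus strand, chr2:28641033-28641232): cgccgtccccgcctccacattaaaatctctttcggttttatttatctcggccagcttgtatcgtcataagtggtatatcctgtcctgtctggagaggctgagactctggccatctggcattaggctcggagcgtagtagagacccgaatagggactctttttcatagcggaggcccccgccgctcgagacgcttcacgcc
Lamtor4 had 2 E-box cores and Tbc1d7 had 1, Sec13 had 2 ETS cores, and these letters were not in the windows of Lamtor2, Lamtor5 and Tsc1. Windows were found for 42 of the 50 members. The E-box core was in 7 of the 42, Fnip1, Lamtor1, Lamtor4, Rheb, Rragb, Rragc and Tbc1d7, and in 5.26% of 32851 windows of all genes. The ETS core was in 8 of the 42, Akt1s1, Eif4ebp2, Mapkap1, Nprl2, Pik3ca, Rraga, Sec13 and Tsc2, and in 6.29% of all windows. Members were counted as genes with a match in any of their windows, and the background was counted in windows. The member counts and these percentages are thus in unlike units, and no excess among members can be read from them. A match describes the letters and not a bound site.

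Pelo -/- cells gave a second set of libraries for the same contrasts, sharing none with the WT sets. Pelo -/- Lrig1 against Pelo -/- Lgr5 gave 0 members higher and 1 lower of 49, where 7.85% of all genes were called (5.77% higher and 2.08% lower). Pelo -/- Lgr6 against Pelo -/- Lgr5 gave 3 higher and 2 lower, where 9.95% were called (7.23% higher and 2.72% lower). The splits were 0 against 2 and 2 against 3 with RLE, 3 against 3 and 4 against 4 with DESeq2, 1 against 1 and 4 against 2 with limma-voom, and 0 against 4 and 1 against 6 at a minimum mean of 5 CPM. For Lrig1 and for Lgr6 alike 43 of 49 members had the same sign in both genotypes, where 82.3% and 80.9% of all genes did. Of the WT calls 8 of 8 and 10 of 10 kept their sign in Pelo -/- cells. Called again were 1 (Tsc1) and 2 (Lamtor2 and Sec13). These genes were selected by their WT calls, and the matching shares among all genes called in WT cells were not computed. The shares of all genes called under the alternatives are not given here either. Nothing particular to the members follows from any of these counts.

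**Figure D4:**
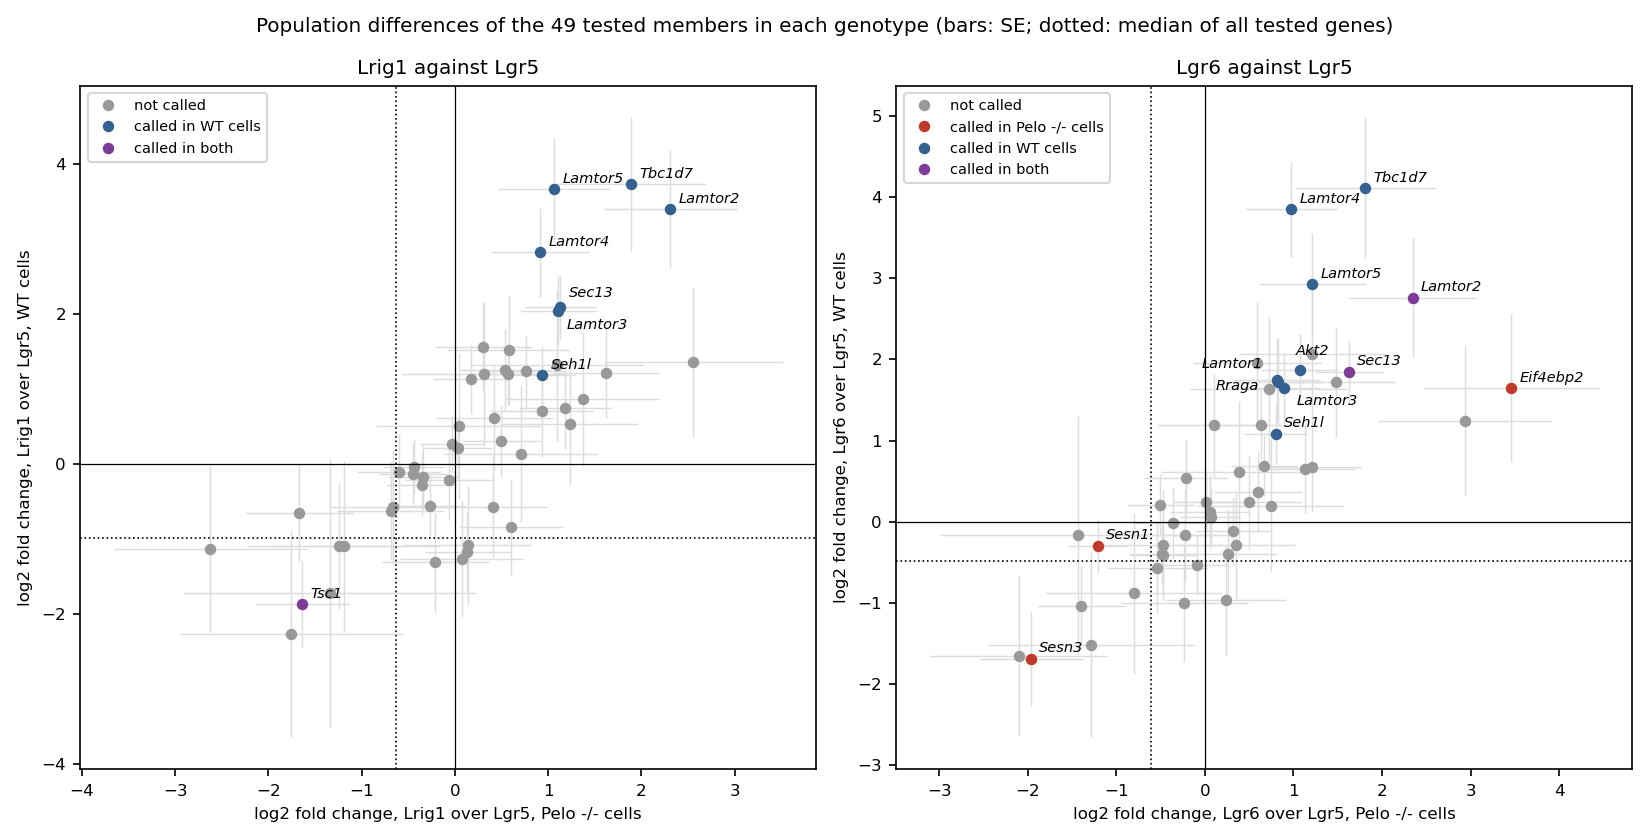
Log2 fold change over Lgr5 in Pelo -/- cells (horizontal axis) and in WT cells (vertical axis) for 49 members, left for Lrig1 and right for Lgr6; bars are SE, colours mark the calls and dotted lines the median of all tested genes. Ragulator subunits lie in the upper right of both panels and farther from 0 in WT cells, with Lamtor5 in the Lrig1 panel at 1.06 in Pelo -/- and 3.66 in WT.

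Tsc1 was at 6.15, 10.6 and 12.1 CPM in Pelo -/- Lrig1 against 28.2, 23.0 and 38.6 CPM in Pelo -/- Lgr5 (-1.64 ± 0.50, edgeR adjusted p = 0.0431). The groups did not overlap, but the call was lost without any of the 6 libraries compared. In Lgr6, Sec13 was at 90, 90.6 and 117 CPM against 51.6, 27.2 and 17.7 CPM in Pelo -/- Lgr5 (1.62 ± 0.39, edgeR adjusted p = 0.00645), a call that held without any 1 library. Eif4ebp2 was at 13.7, 7.18 and 8.54 CPM in Pelo -/- Lgr6 against 0.762, 0.992 and 0.911 CPM in Pelo -/- Lgr5 (3.45 ± 0.99, edgeR adjusted p = 0.0249). Lamtor2 was at 64.8, 73.8 and 128 CPM in Pelo -/- Lgr6 against 30.8, 16.3 and 5.42 CPM in Pelo -/- Lgr5 (2.34 ± 0.72, edgeR adjusted p = 0.0416). Eif4ebp2 lost its call without Pelo -/- Lgr6 replicate 1 or any Pelo -/- Lgr5 library, and Lamtor2 without any library but Pelo -/- Lgr5 replicate 1.

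Sestrins restrain mTORC1 through GATOR2 when amino acids are short. Sesn1 was at 88.9, 85.3 and 68.6 CPM in Pelo -/- Lgr6 against 164, 215 and 183 CPM in Pelo -/- Lgr5 (-1.21 ± 0.33, edgeR adjusted p = 0.0188). Sesn3 was at 8.53, 8.24 and 13.9 CPM in Pelo -/- Lgr6 against 27.3, 54.1 and 38.3 CPM in Pelo -/- Lgr5 (-1.96 ± 0.59, edgeR adjusted p = 0.0337). Both fell with no overlap. The call of Sesn1 held only without Pelo -/- Lgr5 replicate 1 or 3, and that of Sesn3 only without Pelo -/- Lgr5 replicate 1. Sesn2 went the other way, at 8.36, 6.12 and 10.9 CPM in Pelo -/- Lgr6 against 1.93, 0.496 and 0.858 CPM in Pelo -/- Lgr5 (2.93 ± 0.98), without passing (edgeR adjusted p = 0.0566).

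The test over both genotypes, added after the data were seen, used all libraries of each pair of populations. For Lrig1 against Lgr5 it gave 11 members higher and 1 lower of 49, where 25.9% of all genes were called (14.0% higher and 11.9% lower). For Lgr6 against Lgr5 it gave 15 higher and 3 lower, where 23.2% were called (15.3% higher and 7.87% lower). The splits were 9 against 3 and 12 against 6 with RLE, 11 against 7 and 14 against 8 with DESeq2, 11 against 3 and 14 against 4 with limma-voom, and 6 against 13 and 6 against 11 at a minimum mean of 5 CPM. The shares of all genes above belong to the main edgeR fit, and those under the alternatives are not given here. Nothing particular to the members follows from the moved splits. Lamtor2, Lamtor4, Lamtor5, Sec13 and Tbc1d7 rose in both, under every alternative and without any 1 library. Their log2 fold changes were 2.85 ± 0.53, 1.87 ± 0.40, 2.36 ± 0.46, 1.61 ± 0.28 and 2.81 ± 0.60 in Lrig1, and 2.55 ± 0.51, 2.41 ± 0.39, 2.07 ± 0.44, 1.74 ± 0.27 and 2.96 ± 0.59 in Lgr6 (edgeR adjusted p at most 0.00120).

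Tsc1 fell in both, with values of -1.76 ± 0.39 for Lrig1 and -1.22 ± 0.35 for Lgr6 (edgeR adjusted p = 0.00161 and 0.0127), and its sign was the same under every alternative. Sesn3 fell in Lgr6 (-1.83 ± 0.42, edgeR adjusted p = 0.00190) and so did Sesn1 (-0.75 ± 0.23, edgeR adjusted p = 0.0201), while Sesn2 rose (2.09 ± 0.67, edgeR adjusted p = 0.0249). Akt2 rose in Lgr6 (1.47 ± 0.31, edgeR adjusted p = 0.000971). Eif4ebp2 was called in both (1.95 in Lrig1 and 2.55 in Lgr6), as were Lamtor3 (1.58 and 1.27), Seh1l (1.06 and 0.94) and Akt2 in Lrig1 (1.00). Called in Lrig1 alone were Rragc (0.88) and Fnip2 (1.42), and in Lgr6 alone Lamtor1 (1.28), Rraga (1.27), Nprl2 (1.60), Mlst8 (1.64) and Ulk1 (0.91). A call in 1 population alone is no test of a difference between Lrig1 and Lgr6, which is given after these genes. The 37 members not called in Lrig1 ran from -2.01 for the mTORC2-associated Prr5l to 1.202 for Sesn2, and the 31 not called in Lgr6 from -1.88 for Prr5 to 1.28 for Ddit4. Without WT Lgr6 replicate 3, 7 of the 18 calls in Lgr6 were lost. Eif4ebp2 in Lrig1 kept its call in 3 of the 11 fits without 1 library and lost it with the replicate block (1.91, edgeR adjusted p = 0.0530). In Lgr6 it stood at 1.33 without WT Lgr6 replicate 1 and was not called (edgeR adjusted p = 0.111). Of the 12 fits without 1 library in Lgr6, Mlst8 kept its call in 3, Ulk1 in 6 and Sesn2 in 8, and Akt2 in Lrig1 kept it in 7 of 11.

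Mtor itself did not pass between populations, at 0.40 ± 0.31 in Lrig1 and 0.10 ± 0.30 in Lgr6, and neither did Rptor (-0.66 ± 0.43 and -0.20 ± 0.40) or Rictor (-0.42 ± 0.28 and -0.44 ± 0.27). At a minimum mean of 5 CPM the calls lower included Rictor (-1.08 in Lrig1 and -1.15 in Lgr6), Rps6kb1 (-0.92 and -1.09), Pdpk1 (-0.93 and -0.99) and, in Lrig1, Rptor (-1.31), so whether these members passed rested on the minimum, which changes both the genes tested and the scaling.

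No member passed the test between Lrig1 and Lgr6 cells. In WT cells 0 of 49 members were called between them in edgeR (0.0% of all genes), and in Pelo -/- cells 0 (0.0%). At an unadjusted p under 0.05 there was 1 member in each, against 1421 and 1277 of all genes, and DESeq2 and limma-voom called 0 members in each.

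Ratios of counts within a library need no scaling between libraries, but they keep any trend with transcript length. Mtor has 10109 exon bases, against 1302 in Lamtor4 and 884 in Lamtor5, while Tsc1 has 11833 and Tsc2 9620. The part of length in these ratios was not tested. The Tsc1 over Tsc2 ratio was 0.239, 0.295 and 0.330 in Pelo -/- Lrig1 and 0.280 and 0.214 in WT Lrig1. In Pelo -/- Lgr6 it was 0.500, 0.607 and 0.451, against 0.511, 0.617 and 0.678 in WT Lgr6. It was 4.54, 0.950 and 3.03 in Pelo -/- Lgr5 and 1.79, 1.63 and 1.37 in WT Lgr5. The 3 populations thus did not overlap in this ratio, and within each the genotypes overlapped. The Lamtor4 over Mtor ratio was 0.477, 0.423 and 0.598 in Pelo -/- Lgr5 and 0.0925, 0.186 and 0.0413 in WT Lgr5, with no overlap, and 0.453 to 2.83 in the 11 other libraries. The Lamtor5 over Mtor ratio was 2.34, 2.46 and 0.438 in Pelo -/- Lgr5 and 1.19, 0.206 and 0.0811 in WT Lgr5, which overlap, and 1.71 to 5.37 in the others.

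**Figure D5:**
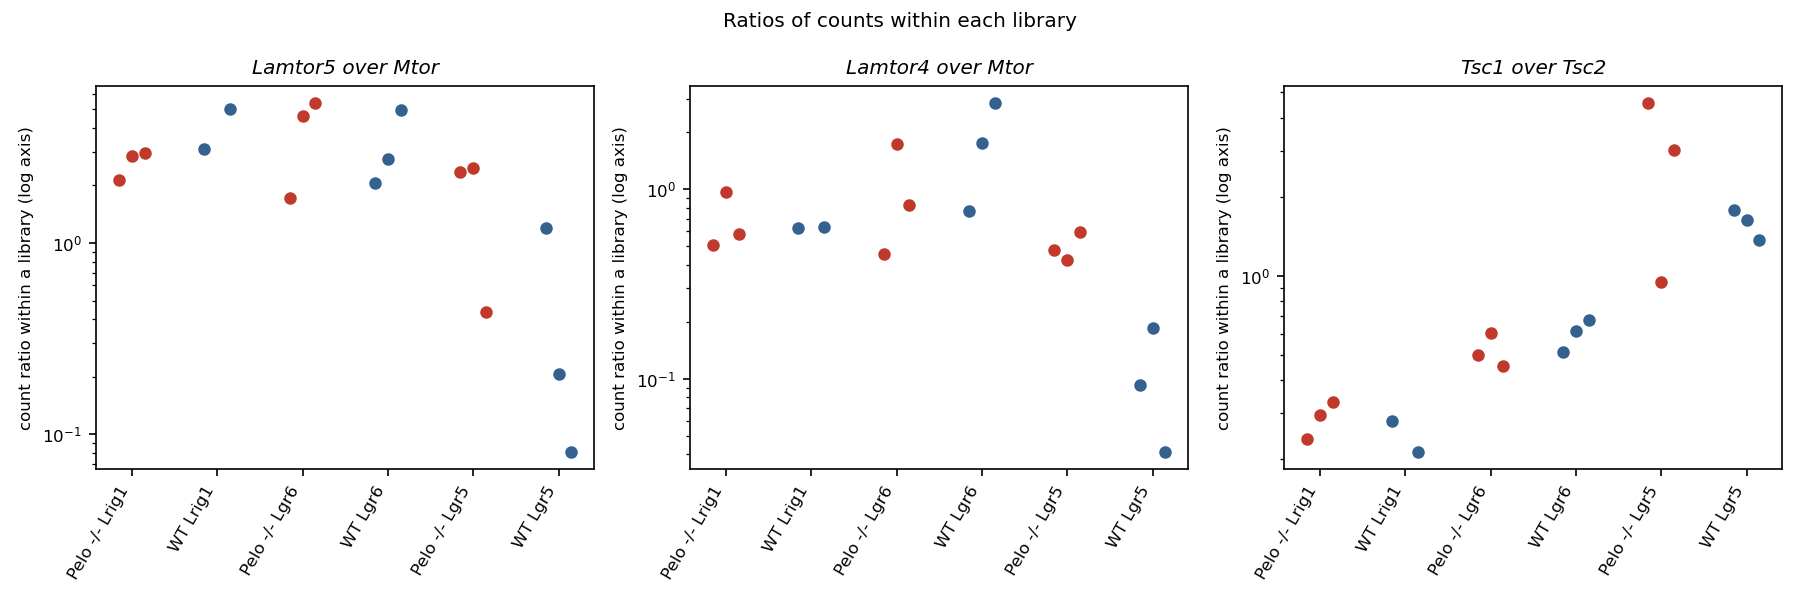
Ratio of counts within each library (vertical log axes) for Lamtor5 over Mtor, Lamtor4 over Mtor and Tsc1 over Tsc2; points are libraries, red is Pelo -/- and blue is WT. Tsc1 over Tsc2 is at 0.214 to 0.330 in Lrig1, 0.451 to 0.678 in Lgr6 and 0.950 to 4.54 in Lgr5 libraries.

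Other genes of the pathway were read from lists chosen by function. In the Pelo comparisons edgeR called 0 in any of 6 lists and any population, and at an unadjusted p under 0.05 a list held 0 to 1 genes in Lrig1, 0 to 2 in Lgr6 and 1 to 5 in Lgr5. In Lgr5 cells the 19 lysosomal genes with TFEB sites had 18 positive values and a median of 0.84, the 15 glycolysis genes 14 and 0.58, and the 27 genes downstream of mTOR 23 and 0.53, where all genes had a median of -0.14, genes with a mean of at least 5 CPM 0.27 and the short coding genes among them 0.51. In Lrig1 the medians of these 3 lists were -0.15, -0.02 and -0.04, and in Lgr6 0.03, 0.16 and -0.03.

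Between WT populations 9.09% of all genes were higher in Lrig1 and 10.6% in Lgr6 against Lgr5, and genes with a mean of at least 5 CPM had medians of 0.75 and 0.80. Against this background glycolysis genes, which mTORC1 is known to induce through Hif1a, rose in 11 of 15 in Lrig1 and 12 of 15 in Lgr6 with 0 lower (medians 2.22 and 2.90). They included Aldoa by 3.39 ± 0.42 in Lrig1 and 3.44 ± 0.40 in Lgr6, and Pkm by 3.10 ± 0.48 and 3.52 ± 0.47. Genes of amino acid sensing and the lysosomal proton pump had 9 and 8 higher of 20 with 0 lower (medians 0.82 and 1.24), led by the pump subunit Atp6v0d1 at 2.83 ± 0.43 in Lrig1 and 2.66 ± 0.41 in Lgr6. The lysosomal list had 8 and 7 higher of 19 with 0 lower (medians 1.41 and 1.09), among them Lamp1 at 3.78 ± 0.45 and 3.85 ± 0.43. Amino acid and one-carbon genes of ATF4 had 6 and 9 higher of 18 with 0 lower (medians 1.29 and 1.28), with the asparagine tRNA synthetase Nars at 2.42 ± 0.39 and 2.39 ± 0.36. Genes downstream of mTOR had 10 higher and 0 lower in Lrig1 and 8 higher and 1 lower in Lgr6 of 27 (medians 0.93 and 0.93). The elongation factor Eef2 was at 3.27 ± 0.45 in Lrig1 and 3.76 ± 0.44 in Lgr6. The length and marker values given for these comparisons apply to the lists as well, and their part in them was not tested.

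Genes upstream of mTOR in insulin and AMPK signalling had 0 higher and 1 lower of 26 in Lrig1 and 0 higher and 2 lower in Lgr6, with medians of 0.08 and 0.09. Pik3r1, a regulatory subunit of PI3-kinase, was lower, at -1.33 ± 0.38 in Lrig1 and -1.41 ± 0.33 in Lgr6 (edgeR adjusted p = 0.0203 and 0.00410). Grb10, an adaptor that restrains insulin signalling, was lower in Lgr6, at -3.14 ± 0.94 (edgeR adjusted p = 0.0258). Grb10 is also in the downstream list, where it is the 1 gene called lower in WT Lgr6. In Pelo -/- cells glycolysis genes again rose, 10 of 15 in Lrig1 and 12 of 15 in Lgr6 (medians 2.01 and 2.63). Of 20 genes of the proton pump and amino acid list, 4 were higher and 0 lower in Lrig1 (median 0.47). In Lgr6 5 were higher and 1 lower (median 1.02). The lysosomal list had 3 and 4 higher of 19 with 0 lower (medians 0.29 and 0.59). The ATF4 list had 6 and 6 higher of 18 with 0 lower (medians 1.04 and 1.00). Of 27 genes downstream of mTOR, 3 were higher and 0 lower in Lrig1 (median 0.65), and 5 higher and 1 lower in Lgr6 (median 0.58). Of all genes 5.77% were higher in Pelo -/- Lrig1 and 7.23% in Pelo -/- Lgr6 against Pelo -/- Lgr5, with medians of 0.46 and 0.51 for genes at a mean of at least 5 CPM.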

How the data were processed

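RNA from sorted cells was read in 17 libraries of 6 groups. The deposited table holds raw counts per gene; the submitters' processing notes name STAR, edgeR, GRCm38 and mm10, without versions; no label or file header names the counting tool or its strand setting. The labels credit the library method to Picelli and colleagues.

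Counts were tested with edgeR 4.0.16 (R 4.3.3; quasi-likelihood test, robust, TMM, a minimum count of 10 and total of 15) with 1 coefficient for each of 6 groups over all libraries. P-values were adjusted by Benjamini-Hochberg over 30405 genes and called under 0.05. There were 12 planned comparisons and 3 added after seeing the data. The steps were tested on simulated data. Alternatives used DESeq2 1.42.0, limma 3.58.1 (voom), RLE factors, other filters and library sizes, the compared groups alone, a replicate block and fewer libraries.

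The members and lists were chosen with earlier results of these data known. Named were the core genes, the 4 smallest p in each direction per Pelo comparison, the 8 smallest adjusted p among calls between populations, and up to 4 genes per other list. Gene positions and windows come from the reference annotation and RefSeq tables. Counts are limited by depth: library totals ran from 9647507 to 28098841.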

Additional observations from a re-analysis of the deposited data

How the results depend on the processing

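The counts of 0 called members in the comparisons of Pelo -/- with WT, in their differences and between Lrig1 and Lgr6 were 0 under every alternative that was run, DESeq2 and limma-voom included. Of 103 named single-gene results, 1735 values were recomputed: 1518 kept their direction and side of the threshold, 188 kept the direction and lost the call, and 29 changed sign, 20 of these without 1 library. The named results of the Pelo comparisons had passed no test, so they had no call to lose. All 188 losses fell on calls between populations, and the 1518 do not measure how stable those calls were. The cause of the changes was not tested.

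The counts from here on are of members alone, without the shares of all genes called in the same fits. They cannot tell a change in the members from a change in the whole table. With the compared groups alone, 5 members were called for WT Lrig1 against WT Lgr5 (8 in the report), 5 for WT Lgr6 against WT Lgr5 (10) and 3 for Pelo -/- Lrig1 against Pelo -/- Lgr5 (1). Without the 3 Lgr5 libraries richest in predicted genes, an alternative chosen after seeing the data, these were 4, 5 and 5, and there were 10 for Pelo -/- Lgr6 against Pelo -/- Lgr5 (5) and 11 for Lgr6 against Lgr5 over both genotypes (18). For Pelo -/- Lrig1 against Pelo -/- Lgr5 the count was also 2 with RLE, 0 with no filter, 4 at a minimum mean of 5 CPM, 6 with DESeq2, 2 with limma-voom and 0 with library sizes that leave out mitochondrial and predicted genes. For Pelo -/- Lgr6 against Pelo -/- Lgr5 it was 3 with no filter and 8 with DESeq2, and for Lrig1 against Lgr5 over both genotypes 19 at a minimum mean of 5 CPM.

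Without 1 library at a time the counts ran from 3 to 10 for WT Lrig1 against WT Lgr5, 4 to 9 for WT Lgr6 against WT Lgr5, 0 to 3 for Pelo -/- Lrig1 and 1 to 7 for Pelo -/- Lgr6 against Pelo -/- Lgr5, 10 to 15 for Lrig1 and 11 to 20 for Lgr6 against Lgr5 over both genotypes, and 0 to 0 in the rest. Where this left 1 WT Lrig1 library, and where leaving out 3 Lgr5 libraries left 1 of WT Lgr5, that library was assumed to vary like the other groups.

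The replicate block gave 6 and 9 called members in WT Lrig1 and WT Lgr6 against WT Lgr5, 0 and 4 in Pelo -/- Lrig1 and Pelo -/- Lgr6 against Pelo -/- Lgr5, and 10 and 17 over both genotypes. Same-numbered libraries of the 2 genotypes correlated at -0.01 to 0.19 over 10923 genes, not all over 0.1, so the numbers were not taken to pair the libraries. The best match was the own number in 6 of 6 Lgr6 and 4 of 6 Lgr5 libraries, a hint from the data and not from the design.

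Sign changes fell among values that had passed no test. In the Pelo -/- comparison in Lgr5 cells, Tsc1 was -0.20 with RLE, -0.37 at the minimum mean of 5 CPM, -0.20 with DESeq2, -0.073 with the other library sizes and -0.063 with the compared groups alone, and Rictor was 0.023 with no filter. Without the 3 Lgr5 libraries, Rptor was -0.24, Tsc2 0.17 and Rheb -0.48. Without 1 library, ranges in Lgr5 cells were -0.40 to 0.64 for Rptor, -0.26 to 0.11 for Rictor and -0.21 to 0.23 for Tsc1. In Lrig1 cells they were -0.19 to 0.11 for Mtor, -0.16 to 0.45 for Rptor, -0.058 to 0.18 for Tsc2, -0.022 to 0.14 for Rheb and -1.29 to 0.43 for Tbc1d7. In Lgr6 cells they were -0.28 to 0.54 for Mtor, -0.38 to 0.22 for Rictor and -0.39 to 0.11 for Tsc2, and for Mlst8 averaged over populations -1.04 to 0.15. Depth limits the low members, since Eif4ebp3 was not tested and Rragb, Rragd and Prr5l rest on few counts.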
